A study of Mus musculus with 4 samples.

Results

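Heat shock proteins are the cell's chaperones, and 40 genes of this family were described here in CD8 T cells sorted from mouse liver. The genes encode HSP70, HSP90, HSP40, HSP110 and small heat shock proteins, the mitochondrial and cytosolic chaperonins, cochaperones and the heat shock factors HSF1 and HSF2. They were taken by symbol from the expression table, and all 40 of 40 were among its 15367 symbols. The family was chosen because heat shock genes were higher in both libraries labelled perforin knockout. The difference between the groups is therefore given for these genes as a description, with no test.

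The study measured RNA in hepatic CD8 T cells of adult C57BL/6 mice that had been fed an MCD diet for 4 weeks, a diet used to produce steatohepatitis, an inflamed fatty liver. The cells came from mice labelled perforin knockout (Prf KO, 2 libraries) and from wild type mice (WT, 2 libraries), and both groups had the diet. The labels name no single animal, no construct and no pool size, so replicates may be separate mice, pools or technical repeats. Values were read as FPKM (fragments scaled by transcript length and by library size), a unit that the sources used here do not name. In each pair below replicate 1 stands before replicate 2.

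Chaperones bind unfolded protein and release it in cycles driven by ATP. HSP70 takes its substrates from HSP40 proteins, HSP110 exchanges its nucleotide, and cochaperones such as HOP pass the substrate on to HSP90. When unfolded protein builds up, the factor HSF1 is set free, binds heat shock elements in promoters and switches on the inducible members of the family. The same genes are known to respond to T cell activation and to the warming and handling of cells during tissue dissociation.

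The labels could not be checked on the targeted gene. Prf1, which encodes perforin, had 95.4 and 98.7 FPKM in the libraries labelled Prf KO, against 125 and 113 FPKM in the WT libraries (log2 fold -0.29, SE 0.24, limma adjusted p = 0.873). A level taken over a whole gene does not tell whether a few of its bases are missing, so every direction given here rests on the labels. All 4 libraries held the CD8 coreceptor gene Cd8a, at 289 and 272 FPKM in the libraries labelled Prf KO and 283 and 289 FPKM in WT. The library labelled Prf KO replicate 1 stood apart, with correlations across genes of 0.914 to 0.924 with the others, which correlated at 0.961 to 0.969 among themselves. Its values are given singly wherever a result rests on them.

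Heat shock elements were looked for first, since they are the sequence by which HSF1 recognises these genes. An element was read as 3 alternating repeats of GAA and its complement, GAANNTTCNNGAA or TTCNNGAANNTTC, on either strand and in the 250 bases before and 50 bases after each start of transcription. Such starts were listed for 32 of the 40 genes in RefSeq's promoter table (build GRCm38.p6), and 5 of the 32 held an exact element (15.6%). Among all 27025 genes with a listed promoter, 179 held one (0.662%). The 5 genes were Hspd1, Hspe1, Hsph1, Chordc1 and Dnajb6, whose sites follow, with capitals for the element and lower case for its flanks. Hspd1 and Hspe1, the genes of the mitochondrial chaperonin HSP60 and its lid HSP10, lie head to head and share 1 stretch with 2 overlapping elements, which is printed on the strand of each gene. Positions are counted from 1 at the start of transcription, and negative ones lie before it.
Hspe1 (chr1:55088053-55088082, plus strand): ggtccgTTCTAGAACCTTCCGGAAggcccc
Hspd1 (chr1:55088053-55088082, minus strand): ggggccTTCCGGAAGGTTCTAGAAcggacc
Hsph1 (chr5:149636280-149636308, minus strand): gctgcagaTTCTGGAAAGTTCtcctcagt
Chordc1 (chr9:18292260-18292288, plus strand): ccgGAACGTTCGGGAAAATTCCTGAAgca
Dnajb6 (chr5:29735844-29735872, plus strand): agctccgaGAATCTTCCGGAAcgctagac
Those of Hspe1 and Hspd1 spanned bases -89 to -72 and -144 to -127 from the starts, and that of Chordc1, 3 overlapping elements, spanned -4 to 19. The Hsph1 element lay 16 to 28 bases after the nearer of its 2 starts. With the 250 upstream bases alone, 3 of 32 genes held an exact element (9.38%), against 0.514% of all genes. A match is a description of the letters and does not show that a factor was bound.

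With 1 mismatch allowed in the 9 fixed letters, 16 of 32 genes had a match (50%), against 8.15% of all genes. Hspa1a and Hspa1b, the pair of stress-inducible HSP70 genes, joined the list in this way. Their promoters are shown in full because this pair encodes the inducible HSP70 and the sequences are nearly identical there: 247 of 250 upstream bases were identical (98.8%). Capitals mark 2 overlapping matches, at bases -114 to -97 in both.
Hspa1a (chr17:34972157-34972406, minus strand): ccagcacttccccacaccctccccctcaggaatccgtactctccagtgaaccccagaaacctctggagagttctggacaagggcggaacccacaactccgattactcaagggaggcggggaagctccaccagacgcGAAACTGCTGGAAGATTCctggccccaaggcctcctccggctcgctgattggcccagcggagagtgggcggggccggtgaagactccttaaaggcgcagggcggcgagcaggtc
Hspa1b (chr17:34959239-34959488, minus strand): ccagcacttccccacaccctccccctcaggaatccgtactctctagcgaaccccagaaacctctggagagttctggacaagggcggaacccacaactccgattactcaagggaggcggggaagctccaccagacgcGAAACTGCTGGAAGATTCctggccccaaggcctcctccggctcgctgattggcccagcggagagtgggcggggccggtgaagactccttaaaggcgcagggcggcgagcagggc
As a description only, since the family was chosen on the difference between the groups, 11 of the 16 genes with such a match stood above both WT libraries in each library labelled Prf KO, with a median log2 fold of 0.50. So did 4 of the 16 genes without a match (Dnajb1, Stip1, Bag3 and Hsf2), with a median of 0.04, and 6 of the 8 genes with no listed promoter, with a median of 0.51. Of all 9805 genes with a mean of at least 1 FPKM, 13.9% did, and nothing is read from these counts about the element.

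**Figure D1:**
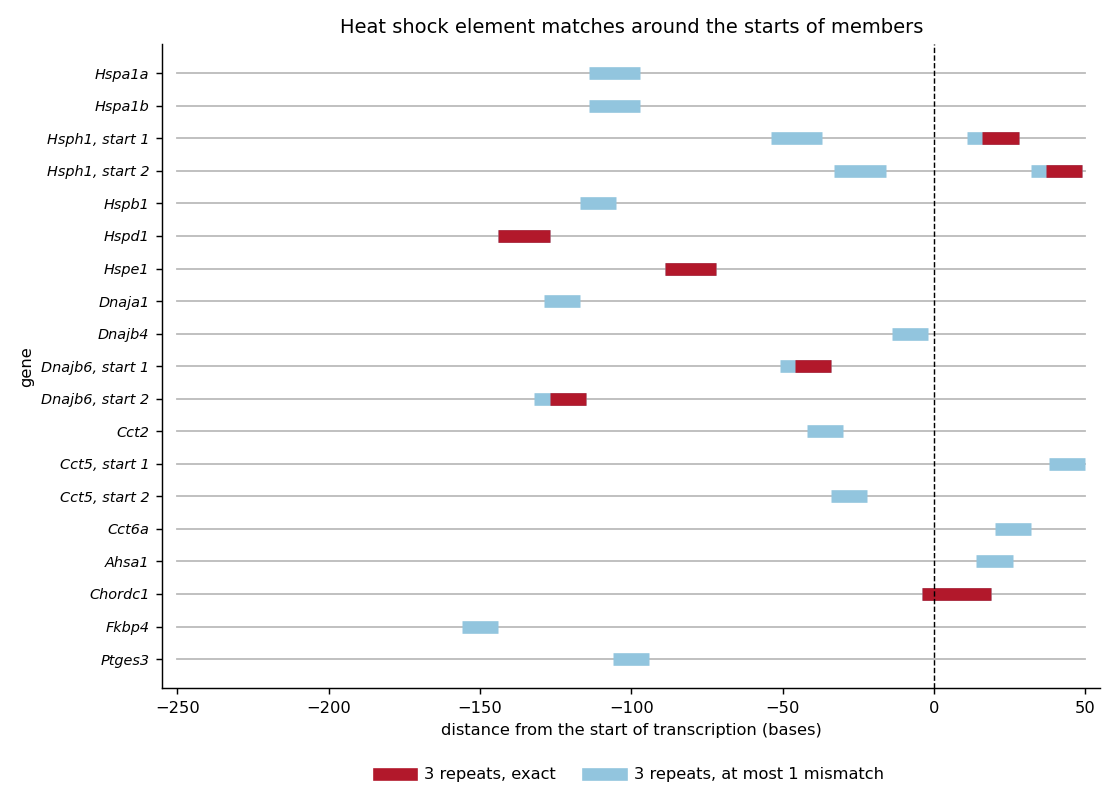
Positions of heat shock element matches in members of the family, in bases from the start of transcription (dashed line). Red bars are exact elements of 3 repeats and blue bars are matches with at most 1 mismatch in the 9 fixed letters; genes with 2 starts that hold a match have a line for each, and Hspa1a and Hspa1b share the positions -114 to -97.

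Across the family, 21 of 40 genes stood above both WT libraries in each library labelled Prf KO, 2 stood below and 17 overlapped. All 40 genes had a mean of at least 1 FPKM. Hspb1 and Hsf2, with WT means of 0.780 and 0.492 FPKM, reached it only through the libraries labelled Prf KO. Among the 9805 genes past this threshold, 13.9% were higher in both and 21.9% lower in both. The rule that chose the family used this contrast, so nothing is read from the share. With upper-quartile scaling 23 and 2 of the 40 did so, against 17.4% and 18.6% of all. The median log2 fold, on the log2(FPKM + 1) scale and labelled Prf KO minus WT, was 0.32 over the 40 genes and -0.08 over all 9805, and it was positive for 29 of the 40 and for 41.7% of all. By role, the higher genes were 5 of 9 in the HSP70 and HSP110 group, 2 of 2 HSP90 genes, 3 of 3 small HSP and mitochondrial chaperonin genes, 6 of 7 cochaperones, 2 of 9 HSP40 genes, 2 of 8 subunits of the cytosolic chaperonin TRiC and 1 of 2 heat shock factors. The family's summed FPKM was 8616 and 9464 in the libraries labelled Prf KO, or 2.58% and 2.47% of each column's total, against 4431 and 7163 in the WT libraries, or 1.17% and 1.82%. In bulk RNA a change in the share of cells that express a gene and a change in its RNA per cell cannot be told apart.

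**Figure D2:**
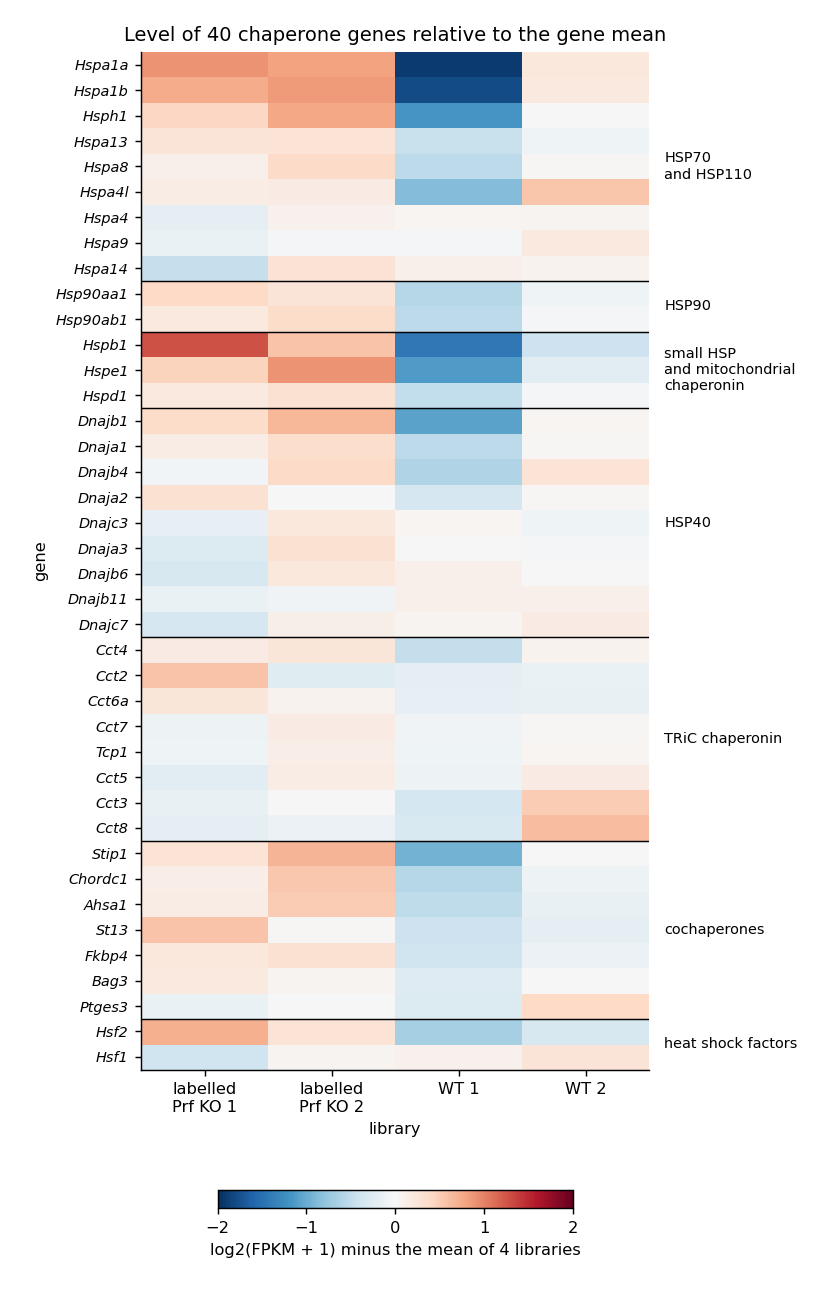
Each row is 1 of the 40 genes and each column 1 library; colour gives log2(FPKM + 1) minus the gene's mean over the 4 libraries, and lines separate the roles. Genes are ordered by log2 fold within a role; WT replicate 1 is the bluest column for Hspa1a, Hspa1b, Hsph1, Hspb1 and Dnajb1, and the lower rows of the HSP40 and TRiC blocks are mixed.

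The inducible HSP70 genes differed widely between the libraries. Hspa1a, the stress-induced HSP70 that is nearly silent in most resting cells, stood at 2013 and 1884 FPKM in the libraries labelled Prf KO, against 287 and 1244 FPKM in the WT libraries. Its near-identical neighbour Hspa1b had 232 and 251 FPKM in the libraries labelled Prf KO, against 39.1 and 159 FPKM in WT. The groups did not overlap for either gene, yet WT replicate 1 was far below the other 3 libraries. The log2 fold was 1.70 for Hspa1a (SE 0.58) and 1.59 for Hspa1b (SE 0.54). It rested on that library: without WT replicate 1 the folds were 0.65 and 0.60, and without WT replicate 2 they were 2.76 and 2.59. The coding sequences of the pair were 99.5% identical, so reads could be split between them, and the ratio of Hspa1a to Hspa1b was 8.69 and 7.50 in the libraries labelled Prf KO and 7.34 and 7.81 in WT.

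Hspa8, the constitutive cytosolic HSP70 that also uncoats clathrin vesicles, was the most abundant member, at rank 17 of the 9805 genes by mean level. It had 1701 and 2075 FPKM in the libraries labelled Prf KO, against 1104 and 1614 FPKM in WT (log2 fold 0.49, SE 0.32). The step from WT replicate 2 to the lower knockout-labelled value was thus small beside the distance between the WT libraries. Hspa1a and Hspa1b together amounted to 1.32 and 1.03 times the FPKM of Hspa8 in the libraries labelled Prf KO, against 0.295 and 0.870 times in the WT libraries. By these values both libraries labelled Prf KO had more inducible than constitutive HSP70 RNA per length, and both WT libraries had less. The order rests on the close ratios of 1.03 in the library labelled Prf KO replicate 2 and 0.870 in WT replicate 2. Of the short stretches of the Hspa8 transcript, 78% also occur in other genes. For Hspa1a the share is 69%, mostly with Hspa1b. Whether reads lost or moved there changed this order was not tested.

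Among the other HSP70 genes only Hspa13, which encodes a microsomal HSP70 without the usual substrate-binding domain, was higher in both libraries labelled Prf KO, with 6.67 and 6.70 FPKM against 3.67 and 5.05 FPKM in WT. Hspa9, the HSP70 of the mitochondrial matrix, had 75.7 and 81.8 FPKM in the libraries labelled Prf KO and 81.0 and 95.9 FPKM in WT. Hspa14, the ribosome-associated member, had 20.2 and 34.7 FPKM in the libraries labelled Prf KO and 30.5 and 29.7 FPKM in WT. Neither separated the groups. Of the 3 HSP110 genes, which encode nucleotide exchange factors of HSP70, Hsph1 was higher in both, at 131 and 168 FPKM in the libraries labelled Prf KO against 42.7 and 99.1 FPKM in WT (log2 fold 1.18, SE 0.38), a fold of 0.58 without WT replicate 1. Hspa4 had values of 44.5 to 53.5 FPKM over the 4 libraries. Hspa4l had 4.84 and 4.85 FPKM in the libraries labelled Prf KO, inside the WT span of 1.89 and 6.67 FPKM.

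Both cytosolic HSP90 genes, whose products mature kinases and hormone receptors, separated the groups. Hsp90aa1, the inducible form, had 194 and 177 FPKM in the libraries labelled Prf KO, against 98.5 and 139 FPKM in WT (log2 fold 0.66, SE 0.26). Hsp90ab1, the constitutive form, had 699 and 785 FPKM in the libraries labelled Prf KO, against 423 and 600 FPKM in WT (0.56, SE 0.28). The ratio of the inducible to the constitutive gene was 0.278 and 0.226 in those labelled Prf KO and 0.233 and 0.232 in WT.

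Hspb1, the small heat shock protein HSP27 that holds unfolded protein without using ATP, was weakly expressed. It had 6.69 and 3.74 FPKM in the libraries labelled Prf KO, against 0.180 and 1.38 FPKM in WT, and its log2 fold of 1.85 (SE 0.51) was the largest of the 40 genes. Its WT mean was under 1 FPKM, so it passed the threshold only through the libraries labelled Prf KO. The head-to-head pair of the mitochondrial chaperonin, whose shared element is printed above, also separated the groups. Hspd1 had 83.8 and 91.0 FPKM in the libraries labelled Prf KO, against 51.9 and 72.3 FPKM in WT (log2 fold 0.50, SE 0.26). Hspe1 had 9.43 and 13.2 FPKM in the libraries labelled Prf KO, against 2.50 and 5.65 FPKM in WT (log2 fold 1.34, SE 0.40). Both genes had the same order of libraries, from WT replicate 1 at the bottom to the library labelled Prf KO replicate 2 at the top. The ratio of Hspd1 to Hspe1 was 8.89 and 6.88 in the libraries labelled Prf KO and 20.8 and 12.8 in WT, although the 2 proteins work together; 52.2% and 54.7% of the 36-base stretches of their transcripts also occur in transcripts of other genes, so their levels are uncertain.

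**Figure D3:**
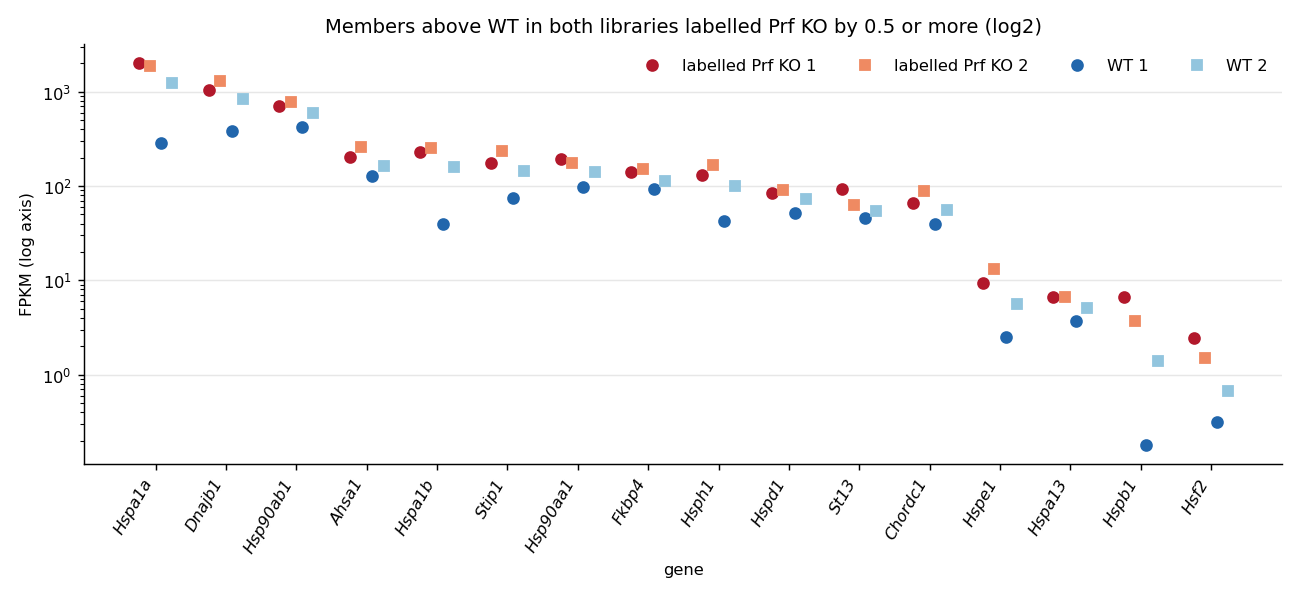
FPKM on a log axis for the 16 genes that were higher in both libraries labelled Prf KO with a log2 fold of at least 0.5, ordered by mean level. Red and orange points are the libraries labelled Prf KO and blue points the WT libraries. The choice of these genes puts both WT points lowest. WT replicate 1 (dark blue) is the lower of them for every gene shown, and for 804 of the 1367 tested genes above both WT libraries.

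The HSP40 genes, whose J domains stimulate the ATPase of HSP70, mostly overlapped between the groups. Dnajb1, the main heat-inducible HSP40 of the cytosol, was the exception in size, at 1055 and 1303 FPKM in the libraries labelled Prf KO against 388 and 846 FPKM in WT (log2 fold 1.03, SE 0.38), a fold of 0.47 without WT replicate 1. Dnaja1, a farnesylated cytosolic HSP40, had 18.0 and 20.7 FPKM in the libraries labelled Prf KO and 10.9 and 16.3 FPKM in WT. Dnajb11, which serves the HSP70 of the endoplasmic reticulum, was the only HSP40 gene of the family lower in both. The step was small, at 13.6 and 14.3 FPKM in the libraries labelled Prf KO against 16.2 and 16.2 FPKM in WT. The remaining 6, Dnaja2, Dnaja3, Dnajb4, Dnajb6, Dnajc3 and Dnajc7, overlapped between the groups. Dnajb6, which suppresses aggregation and holds an exact heat shock element, had 38.1 and 55.6 FPKM in the libraries labelled Prf KO and 51.4 and 47.6 FPKM in WT. Dnajc7, which links HSP70 to HSP90, had the second highest mean of the group, at 54.3 and 74.6 FPKM in the libraries labelled Prf KO and 70.9 and 76.7 FPKM in WT.

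Cochaperones of HSP70 and HSP90 were higher in both libraries labelled Prf KO for 6 of 7 genes, with a median log2 fold of 0.60 over the 7. Stip1 encodes HOP, which joins HSP70 to HSP90, and had 177 and 233 FPKM in the libraries labelled Prf KO against 74.98 and 146 FPKM in WT (log2 fold 0.95, SE 0.34), a fold of 0.47 without WT replicate 1. Ahsa1, the activator of the HSP90 ATPase, had 204 and 260 FPKM in the libraries labelled Prf KO against 129 and 165 FPKM in WT (log2 fold 0.66, SE 0.26). These were the most abundant of the group, and WT replicate 1 was lowest for all 7. Chordc1, a zinc-binding HSP90 partner whose start is spanned by 3 elements, had 65.5 and 87.5 FPKM in the libraries labelled Prf KO against 39.96 and 55.7 FPKM in WT. Fkbp4, the prolyl isomerase of steroid receptor complexes, had 141 and 150 FPKM in the libraries labelled Prf KO against 92.4 and 113 FPKM in WT. Their log2 folds were 0.67 (SE 0.28) and 0.51 (SE 0.24), without overlap of the groups. St13, the HSP70-interacting protein HIP, had 92.04 and 63.0 FPKM in the libraries labelled Prf KO against 46.3 and 54.0 FPKM in WT. Bag3, which steers HSP70 clients to autophagy, had 9.45 and 8.45 FPKM in the libraries labelled Prf KO against 6.64 and 8.15 FPKM in WT, and its log2 fold of 0.25 (SE 0.31) was the smallest among the 21 higher genes. Ptges3, the HSP90 cochaperone p23, overlapped, at 7.83 and 8.64 FPKM in the libraries labelled Prf KO and 7.01 and 11.7 FPKM in WT.

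TRiC is a ring of 8 different subunits that folds actin and tubulin. Of its genes 2 of 8 stood above both WT libraries in each library labelled Prf KO, against 13.9% of all tested genes. The median log2 fold over the 8 was 0.05. The summed FPKM did not overlap between the groups, at 1319 and 1323 in the libraries labelled Prf KO against 1105 and 1270 in WT. With upper-quartile scaling Tcp1 and Cct7 joined Cct4 and Cct6a among the genes above both WT libraries. Cct6a was higher in both, at 292 and 258 FPKM in the libraries labelled Prf KO against 218 and 222 FPKM in WT. Cct4 was also higher in both, at 158 and 165 FPKM in the libraries labelled Prf KO against 101 and 146 FPKM in WT. Their log2 folds were 0.32 (SE 0.24) and 0.41 (SE 0.27). Cct5, the most abundant subunit gene, had 296 and 382 FPKM in the libraries labelled Prf KO and 317 and 383 FPKM in WT. Its log2 fold of -0.05 became positive with upper-quartile scaling (0.03) and quantile scaling (0.12). Cct2 had 262 FPKM in the library labelled Prf KO replicate 1, against 149, 155 and 161 FPKM in the library labelled Prf KO replicate 2 and in WT replicates 1 and 2, so its log2 fold of 0.32 was that of 1 library.

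The subunits of TRiC stand in equal number in the complex, but their RNA levels per length did not. The highest subunit gene exceeded the lowest by 23.0 and 28.2 times in the libraries labelled Prf KO and by 27.1 and 16.4 times in WT. The lowest were Cct8, with 12.8 and 13.5 FPKM in the libraries labelled Prf KO and 11.7 and 23.3 FPKM in WT, and Cct3, with 16.1 and 17.9 FPKM in the libraries labelled Prf KO and 13.8 and 25.9 FPKM in WT. Both were highest in WT replicate 2. Their transcripts share 6.66% and 8.86% of their 36-base stretches with other genes, and whether the deposited values lost reads there was not tested.

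The 2 heat shock factors differed in opposite directions. Hsf1, the main activator of the response, had 15.8 and 22.04 FPKM in the libraries labelled Prf KO against 22.5 and 25.6 FPKM in WT (log2 fold -0.34, SE 0.28), and with Dnajb11 it made up the 2 genes lower in both. The step from the highest knockout-labelled value to the lowest WT value was small. Hsf2, its weakly expressed relative, had 2.42 and 1.51 FPKM in the libraries labelled Prf KO against 0.317 and 0.667 FPKM in WT (log2 fold 0.98, SE 0.51). Both WT values of Hsf2 were under 1 FPKM, so it passed the threshold only through the libraries labelled Prf KO. HSF1 is controlled mainly at the protein level, which RNA does not measure.

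The libraries of the same group were then compared, a contrast that the choice of the family did not use, although both WT values also enter the group difference. WT replicate 2 exceeded WT replicate 1 for 35 of the 40 genes, against 50.4% of all 9805 genes. Upper-quartile scaling gave 35 of 40 against 49.5%. The difference was at least 0.5 on the log2 scale for 16 of the 40 genes, against 12.2% of all genes. It reached 2.11 for Hspa1a, a distance that 9 of the 9805 genes, itself included, met or passed. It was 2.00 for Hspa1b, 1.41 for Hspa4l, 1.20 for Hsph1, 1.12 for Dnajb1 and 1.01 for Hspb1. The median difference was 0.37 over the family and 0.003 over all genes. Each is a comparison of 1 library with 1 library, so no test was possible.

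WT replicate 1 was the lowest of the 4 libraries for 27 of the 40 genes, against 20.8% of all genes. The 27 include the 21 members above both WT libraries. For these a WT library is the lowest by the contrast that chose the family, so nothing is read from the count. The order with WT replicate 1 lowest, WT replicate 2 next and both libraries labelled Prf KO on top was seen for 21 of the 40 genes and for 8.2% of all genes, and it includes the contrast that chose the family. Among the genes above both WT libraries, it was the order of all 21 members and of 804 of the 1367 genes in all. Of the other 19 genes 14 had WT replicate 2 above WT replicate 1, and 9 of the 40, among them Hspa4l, Cct3, Cct8 and Ptges3, had their WT replicate 2 value above both libraries labelled Prf KO, against 36.3% of all genes. Without WT replicate 1 the median log2 fold of the 21 higher genes was 0.44 and without WT replicate 2 it was 0.84, against 0.66 with all libraries. The fold moved by over 1.5 times for 15 of the 21 without WT replicate 1, for 9 without WT replicate 2, for 1 without the library labelled Prf KO replicate 1 and for 0 without replicate 2.

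A smaller share of this family than of all genes differed by 0.5 or more (log2) between the libraries labelled Prf KO. Genes were not matched for expression level in this comparison. Replicate 2 exceeded replicate 1 for 31 of the 40 genes, against 59.6% of all genes, but for 19 after upper-quartile scaling, so no direction is read from this count. A difference of at least 0.5 was seen upward for 3 of the 40 genes (Hspa14, Dnaja3 and Dnajb6), against 26.4% of all genes, and downward for 3 (Hspb1, Cct2 and St13), against 16.2%. For Hspa1a the replicates differed by -0.10 on the log2 scale and for Hspa1b by 0.12. The library that stood apart across all genes thus did not stand apart in the inducible HSP70 genes.

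**Figure D4:**
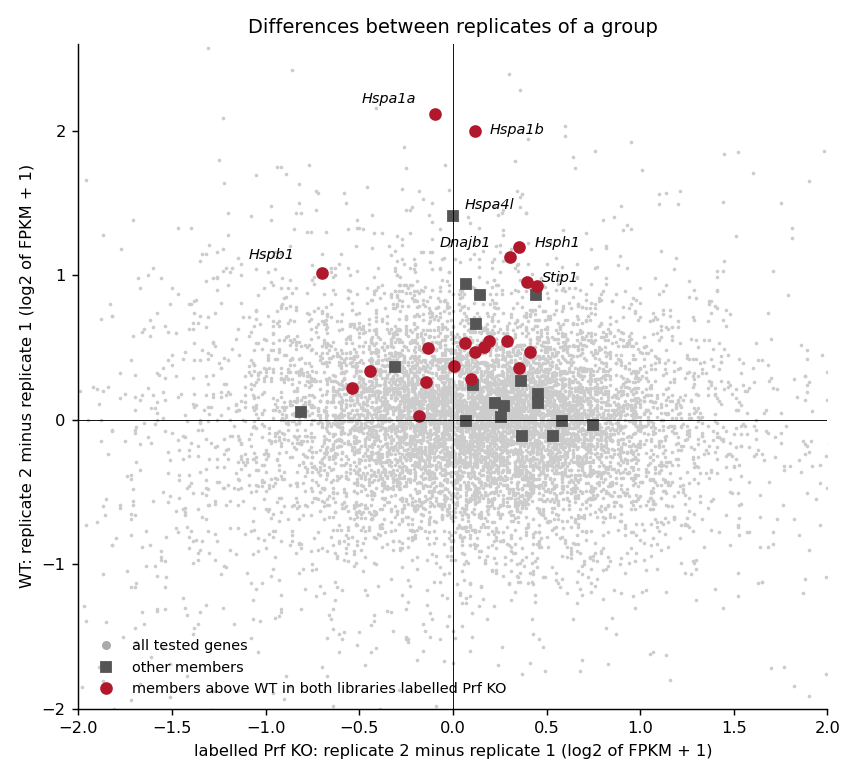
Difference between the replicates of a group, replicate 2 minus replicate 1 in log2(FPKM + 1), for the libraries labelled Prf KO (horizontal) and for WT (vertical). Grey points are all 9805 tested genes, of which 191 lie outside the axes, and red circles and dark squares are the 40 members; Hspa1a and Hspa1b sit near 2 on the vertical axis and near 0 on the horizontal axis.

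Related genes outside the family were compared between the groups to see how far the pattern reached. Of 9805 genes tested with limma 0 passed an adjusted p of 0.05 in either direction (0%), with 470 at an unadjusted p under 0.05 (4.79%), and 0 of the 128 tested genes in 9 related lists passed. At an unadjusted p under 0.05 there were 6 higher and 4 lower among the 128. In these lists 18 genes stood above both WT libraries in each library labelled Prf KO and 27 below, and their median log2 fold was -0.11. Of all tested genes 13.9% stood above and 21.9% below, so 18 and 27 of 128 lie near the background. Whether the family differs from these lists was not tested, because the family was chosen on this contrast.

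Chaperones of other compartments were taken first. Among 13 chaperone genes of the endoplasmic reticulum 2 stood above and 1 below in both, and their median log2 fold was 0.04, or -0.10 without WT replicate 1 and -0.05 without the library labelled Prf KO replicate 2. Hspa5, which encodes BiP, the HSP70 of that compartment, had 249 and 496 FPKM in the libraries labelled Prf KO and 448 and 541 FPKM in WT (log2 fold -0.48, SE 0.35, limma adjusted p = 0.866), and the fold was 0.013 without the library labelled Prf KO replicate 1. Among 12 mitochondrial chaperones and proteases 1 was higher and 2 lower in both, with a median of -0.20, or 0.0078 without the library labelled Prf KO replicate 1. Clpp, the matrix protease subunit, had 2.19 and 4.94 FPKM in the libraries labelled Prf KO against 7.90 and 8.10 FPKM in WT (log2 fold -1.05, SE 0.40, limma adjusted p = 0.866).

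Partners and substrates of TRiC were compared next. Of 7 prefoldin and phosducin-like genes, whose products hand substrates to TRiC, 1 was higher and 4 lower in both, with a median of -0.43, or -0.16 without the library labelled Prf KO replicate 1. Pfdn4, a prefoldin subunit, had 12.3 and 18.3 FPKM in the libraries labelled Prf KO against 25.0 and 25.7 FPKM in WT (log2 fold -0.72, SE 0.29). Of 11 actin and tubulin genes 0 were higher and 4 lower in both, with a median of -0.07, or 0.02 with upper-quartile scaling.

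Of 24 further HSP40 genes 3 were higher and 6 lower in both, with a median of -0.07, or 0.000963 with upper-quartile scaling and 0.03 without the library labelled Prf KO replicate 1. Dnaja4, a heat-inducible HSP40 close to Dnaja1, had the smallest unadjusted p of all 128 genes, at 41.6 and 53.0 FPKM in the libraries labelled Prf KO against 12.1 and 26.4 FPKM in WT (log2 fold 1.34, SE 0.37, limma adjusted p = 0.866). Its order of libraries was that of Hsph1 and Dnajb1. Of 23 further cochaperone genes 5 were higher and 6 lower in both, with a median of -0.10, or 0.07 without the library labelled Prf KO replicate 1. Cdc37l1, an HSP90 cochaperone, had 15.2 and 15.4 FPKM in the libraries labelled Prf KO against 7.75 and 7.83 FPKM in WT (log2 fold 0.89, SE 0.28), and Cacybp had 311 and 438 FPKM in the libraries labelled Prf KO against 196 and 285 FPKM in WT (0.64, SE 0.30). Among 11 other HSP70 and small HSP genes 2 had a mean of at least 1 FPKM.

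Of 9 heat-inducible genes that encode no chaperone 3 were higher and 1 lower in both, with a median of 0.27, or 0.05 without WT replicate 1. Hmox1, the haem oxygenase, had 54.5 and 44.5 FPKM in the libraries labelled Prf KO against 29.7 and 31.2 FPKM in WT (log2 fold 0.68, SE 0.25). The ubiquitin gene Ubb had 4559 and 10888 FPKM in the libraries labelled Prf KO and 10945 and 11225 FPKM in WT. Its lowest value was thus in the library labelled Prf KO replicate 1, not in WT replicate 1. Among 27 immediate-early genes, which tissue dissociation is known to switch on, 3 were higher and 3 lower in both, with a median of -0.14, or 0.06 without WT replicate 2 and 0.08 without the library labelled Prf KO replicate 1. Atf3 had 194 and 159 FPKM in the libraries labelled Prf KO against 86.3 and 128 FPKM in WT, and Egr1 had 81.4 and 164 FPKM in the libraries labelled Prf KO against 176 and 288 FPKM in WT. WT replicate 2 exceeded WT replicate 1 for 22 of these 27 genes, beside 35 of 40 in the chaperone family and 50.4% of all tested genes. The count was 10 of 12 for mitochondrial chaperones and proteases and 10 of 13 for chaperones of the endoplasmic reticulum. It was 8 of 11 for actin and tubulin genes, 10 of 24 for the further HSP40 genes and 12 of 23 for the further cochaperones. The heat-inducible genes that encode no chaperone had 7 of 9. The prefoldin and phosducin-like genes had 4 of 7, and the other HSP70 and small HSP genes 1 of 2. No source used here gives the handling time or RNA quality of the libraries, whose part was not tested.

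**Figure D5:**
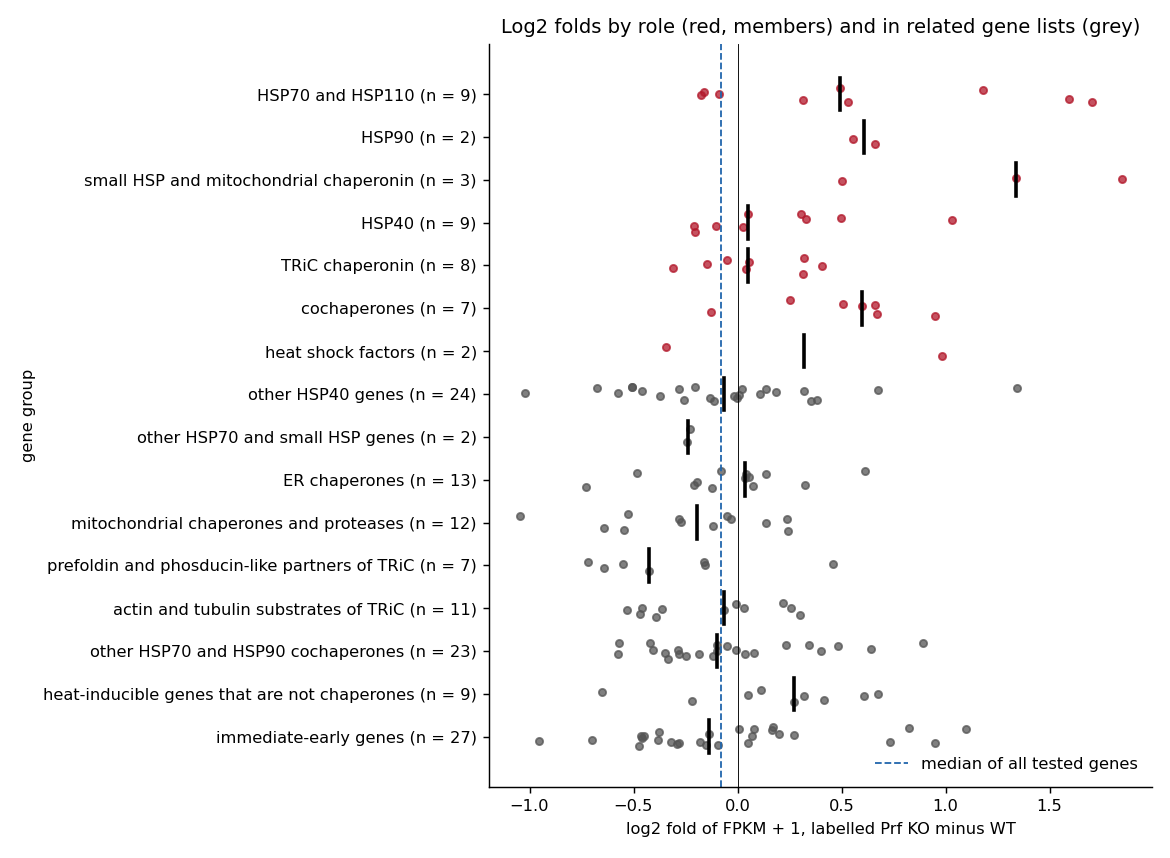
Log2 fold of FPKM + 1, labelled Prf KO minus WT, for each tested gene of the family by role (red) and of the related lists (grey); black bars are medians and the dashed line is the median of all tested genes at -0.08. HSP90, cochaperones and the small HSP and mitochondrial chaperonin group have medians of 0.61, 0.60 and 1.34. The medians are 0.49 for the HSP70 and HSP110 group, 0.32 for the heat shock factors and 0.05 for both HSP40 and TRiC. Those of the endoplasmic reticulum, mitochondrial and TRiC partner lists lie between -0.43 and 0.04, and that of the heat-inducible genes that are not chaperones is 0.27. The family was chosen on this contrast, so nothing is read from the comparison.

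Several members share sequence with other genes, which can move reads between them. In the annotated transcripts (GENCODE M21), 69.2% of the 36-base stretches of Hspa1a, 78.3% of Hspa8, 61.6% of Hsp90aa1, 56.5% of Hspb1, 44.5% of Dnajb6 and 30.4% of Dnaja1 also occur in other genes, mostly Hspa1b or processed pseudogenes. Hspa1a, Hspd1, Hspe1, Dnaja1, Dnaja3, Dnajb6, Dnajc7, Tcp1, Cct6a, Cct7 and Cct8 overlap an exon of a gene on the opposite strand, which a kit that does not mark strand cannot separate. Among the 18 genes with under 1% of shared stretches, which include Hsph1, Dnajb1, Chordc1, St13 and Fkbp4, 8 stood above and 2 below both WT libraries in each library labelled Prf KO, the median log2 fold was 0.32, and 15 had WT replicate 2 above WT replicate 1. Among the 18 genes with at least 10% of shared stretches 11 stood above and 0 below, the median log2 fold was 0.49, and 16 had WT replicate 2 above WT replicate 1. Of all tested genes 13.9% stood above and 21.9% below, and 50.4% had WT replicate 2 above WT replicate 1. The family was chosen on the difference between the groups, so nothing is read from these counts about shared reads. The part of shared reads in the family's values was not tested.

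Markers of T cells and of other liver cells varied between the libraries as well. The 7 CD8 T cell markers in the table summed to 2566 and 3107 FPKM in the libraries labelled Prf KO and to 3276 and 3135 FPKM in WT, and 2 of the 7, Cd3d and Cd3g of the T cell receptor complex, were lower in both. The 10 macrophage and Kupffer cell markers in the table summed to 1670 and 2452 FPKM in the libraries labelled Prf KO and to 2455 and 2553 FPKM in WT, most of it Lyz2, which neutrophils also express. Of these 10 markers 2 were above both WT libraries, among them Csf1r, the receptor of macrophage colony-stimulating factor, at 38.2 and 24.3 FPKM in the libraries labelled Prf KO against 17.1 and 17.1 FPKM in WT. The 6 dendritic cell and MHC class II markers summed to 1541 and 2139 FPKM in the libraries labelled Prf KO and to 3888 and 1822 FPKM in WT, so the library with the lowest heat shock values had the highest sum. The 10 liver endothelial markers summed to 319 and 76.0 FPKM in the libraries labelled Prf KO and to 156 and 35.6 FPKM in WT, with replicate 1 higher in both groups. The 8 neutrophil markers in the table summed to 104 and 142 FPKM in the libraries labelled Prf KO against 226 and 238 FPKM in WT, with 6 of the 8 lower in both. Of these 6, Mpo was under 1 FPKM throughout. Ngp had 4.39 FPKM in the library labelled Prf KO replicate 2 against 4.52 FPKM in WT replicate 1. Over all tested genes 13.9% stood above both WT libraries and 21.9% below, and none of the marker counts was tested. Hepatocyte markers summed to 10.6 to 32.3 FPKM, with Ttr and Fgb at 0 in every library. The 4 NK cell markers summed to 16.9 and 14.6 FPKM in the libraries labelled Prf KO against 12.0 and 10.5 FPKM in WT, most of it Eomes, which CD8 T cells can also express, while Ncr1 and Klra8 were under 1 FPKM throughout. The 3 CD4 T cell markers summed to 12.1 and 22.6 FPKM in the libraries labelled Prf KO and to 6.13 and 25.5 FPKM in WT, most of it Cd40lg, with Foxp3 under 1 FPKM throughout. The B cell sums were 22.9 and 58.0 FPKM in the libraries labelled Prf KO and 37.6 and 45.9 FPKM in WT, and the erythroid sums 80.4 and 93.3 FPKM in the libraries labelled Prf KO and 99.7 and 66.5 FPKM in WT. Stellate cell markers summed to 11.9 and 0.313 FPKM in the libraries labelled Prf KO and to 0.0236 and 0.901 FPKM in WT, with Col1a2 at 0 in every library. The part of these cells in the heat shock values was not tested.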

How the data were processed

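RNA of CD8 T cells sorted from mouse liver was measured in 4 libraries, 2 labelled Prf KO and 2 WT, grouped by their titles. Cells were sorted by FACS, RNA was taken up in Trizol and the TruSeq RNA kit was used for the libraries, per the labels' protocols; that kit keeps no strand information. The submitters' processing notes list Bowtie 0.12.2 and mm8 without saying what each was used for. The counting tool, annotation and unit: not given in the sources used here. Values deposited by the authors were read as FPKM, because they are not whole numbers and the 5th percentile of values above 0 is 0.159 to 0.203 for transcripts under 700 bases and 0.0126 to 0.0538 for those over 3000. Reads were not recoverable, so depth is unknown and no counting interval was computed.

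All fits used log2(FPKM + 1) with no rescaling; fold changes on this scale understate those of weakly expressed genes. Genes with a mean of at least 1 (9805) were tested with limma 3.58.1 in R 4.3.3 (moderated, with an intensity trend, two-sided, Benjamini-Hochberg over all tested genes, threshold 0.05), and the script was tested on simulated data. P-values rest on the variation among 4 libraries only, possibly technical, and an exact permutation test of 2 against 2 cannot go below 0.333. The members and the lists were chosen with earlier results of these data known. Members were named if the groups did not overlap with a difference of at least 0.5, as the most or least abundant 2 of a role, or as Hspa8, Hsp90ab1, Hsf1 or Hsf2; other members and single marker genes of cell types were added after their values were seen. Of each related list up to 3 genes with the smallest p, and Hspa5, Ubb and Prf1, could be named, of which the text gives a part; 1 gene that this rule always names is not reported here. Promoters came from RefSeq (GRCm38.p6), and transcript stretches of 36 bases and overlaps from GENCODE M21, both of a later build than mm8. Alternatives were other filters, scalings, pseudocounts and variance models, the replicate number as a block, and leaving out each library. Figures were drawn with matplotlib 3.10.9.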

Additional observations from a re-analysis of the deposited data

How the results depend on the processing

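The count of genes past the threshold was 0 with every filter, scaling, pseudocount and variance model, with an adjusted p under 0.1 and with the replicate number as a block, and ran from 0 to 1 with a library left out (Atp5k without WT replicate 2, H2-Q6 without the library labelled Prf KO replicate 2, both named after their values were seen). The block left the family's median log2 fold at 0.32. Samples with the same number deviated together with a correlation of 0.07 across genes, and nothing in the labels says what a number marks. With a library left out, the median ran from 0.18 to 0.66, members higher in both ran from 21 to 29 and members lower in both from 2 to 12, partly because fewer libraries overlap less. The family's median was 0.31 to 0.45 with other scalings and pseudocounts. The median of the related genes was -0.028 with upper-quartile scaling and -0.0096 with quantile scaling, and ran from -0.23 to 0.037 with a library left out. Members higher in the library labelled Prf KO replicate 2 than in replicate 1 numbered 19 with upper-quartile and 20 with quantile scaling; the cause was not tested. The share of members with a heat shock element was 46.9% with 2 repeats and 50% with 1 mismatch, and the share of tested genes with an exact element was 0.548%. With a library left out, log2 folds that changed sign ran from -0.50 to 0.014 for Hspb6, from -0.98 to 0.013 for Hspa5 and from -1.80 to 0.35 for Creld2. The folds of 3, 5, 6 and 4 of the 40 members changed sign without WT replicates 1 and 2 and the libraries labelled Prf KO replicates 1 and 2. Fits with a library left out assume that the lone library of a group varies like the other group, which does not affect the sign. The depth is unknown, so no value near 0 could be told from an absent transcript.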
